A study of Mus musculus with 16 samples.

Results

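The liver coagulation genes described here are 9 of the 57010 genes in the deposited table: prothrombin (F2), the coagulation factors VII, IX, X and V (F7, F9, F10 and F5), the fibrinogen chains α, β and γ (Fga, Fgb and Fgg) and plasminogen (Plg). Their rows were taken by gene name, and each name matched 1 row. The set was drawn up with earlier results of these data known. All 9 passed a filter of a mean of at least 1 TPM, as did 11766 genes in all. TPM is a transcript level scaled by transcript length and by the library total. The libraries came from whole liver of male wild-type C57BL/6J mice in 4 groups of 4. The methods give an age of 8 to 12 weeks, and the study's scheme begins the diet at 8 weeks, so livers taken after a diet of 3 months came from older animals. Cd mice were given CdCl2 into the peritoneum at 1.25 mg/kg on each of 7 days. Se mice ate food with selenomethionine (SeMet) at 2 ppm over 3 months, and Cd+Se mice had that food with the same injections over the last days. Control mice had neither, and whether they were sham-injected was not given in the sources used here.

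Blood clots through a protease cascade in which factor VII with tissue factor, then factors IX and X, cut the next zymogen until prothrombin becomes thrombin and thrombin turns fibrinogen into fibrin. Factors II, VII, IX and X are made by hepatocytes and need vitamin K-dependent carboxylation, while factor V is a cofactor that speeds the cutting of prothrombin. Fibrinogen is a secreted protein of paired α, β and γ chains and a classic acute-phase product driven by interleukin 6 (IL-6), and plasminogen is the zymogen of plasmin, which dissolves fibrin.

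The 3 fibrinogen genes lie side by side on mouse chromosome 3 (GRCm38, GENCODE M21 annotation), Fgg at chr3:83007724-83015049 on the plus strand, Fga at chr3:83026076-83033627 on the plus strand and Fgb at chr3:83040141-83049863 on the minus strand. Gaps of 11026 and 6513 bases separate them. F7 (chr8:13026034-13035809) and F10 (chr8:13037308-13056676) are also neighbours, 1498 bases apart and both on the plus strand. F2 lies at chr2:91625320-91636414 on the minus strand, F5 at chr1:164151838-164220277, F9 at chrX:59999464-60030759 and Plg at chr17:12378608-12419385, these 3 on the plus strand.

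The promoters of the fibrinogen trio are shown because the 3 chains moved unequally in Cd liver, as described below the sequences. They are RefSeq sequence of build GRCm38.p6, each read 5′ to 3′ on its gene's strand, and end where the GENCODE gene begins, which leaves 173 bases for Fga (chr3:83025903-83026075, plus strand) and 250 bases for Fgb (chr3:83049864-83050113, minus strand) and for Fgg (chr3:83007474-83007723, plus strand). Capitals mark matches to the motifs searched.
Fga: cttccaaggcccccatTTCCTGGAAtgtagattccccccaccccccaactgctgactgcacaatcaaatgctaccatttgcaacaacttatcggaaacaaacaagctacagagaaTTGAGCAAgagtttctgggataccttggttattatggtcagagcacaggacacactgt
Fgb: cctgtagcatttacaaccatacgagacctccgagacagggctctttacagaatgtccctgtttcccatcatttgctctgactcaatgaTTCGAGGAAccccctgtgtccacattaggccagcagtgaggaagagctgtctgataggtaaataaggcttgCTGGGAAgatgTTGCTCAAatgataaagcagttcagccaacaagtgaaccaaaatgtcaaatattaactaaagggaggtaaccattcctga
Fgg: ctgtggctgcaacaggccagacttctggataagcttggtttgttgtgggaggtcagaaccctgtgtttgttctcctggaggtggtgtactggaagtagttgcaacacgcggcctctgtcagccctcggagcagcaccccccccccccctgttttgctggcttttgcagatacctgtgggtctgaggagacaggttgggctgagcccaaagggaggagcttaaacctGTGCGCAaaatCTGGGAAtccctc
The motifs, searched on both strands of the 250 bases before the RefSeq start, were the CTGGGAA element of IL-6-driven acute-phase genes (in 9.1% of 32851 mouse promoter windows of that length), a STAT3 site TTCNNNGAA (7.02%), a C/EBP site TTGCNNAA (9.56%), an HNF1 site GTTAATNAT (0.737%), an HNF4 site CAAAGTCCA (0.384%), metal response element cores TGCACNC (10.4%) and TGCGCNC (12.5%), and an antioxidant response core TGACNNNGC (10.2%). Fgb held CTGGGAA at -91 to -85, a C/EBP match at -80 to -73 and a STAT3 match at -162 to -154. Fgg held CTGGGAA at -13 to -7 and a TGCGCNC match at -24 to -18. Fga held a STAT3 match at -234 to -226, a C/EBP match at -135 to -128 and, beyond the printed stretch, an HNF1 match at -46 to -38, but not the letters CTGGGAA. Its printed stretch does hold ctgggat, which differs only in the last letter and was not counted by this exact search. Of the other members with a promoter in the table, F9 held overlapping CTGGGAA and STAT3 matches that both begin at -82 and a C/EBP match at -24 to -17, whereas F2, F5, F7 and F10 held none of these letters. A match is a string of letters, not a shown binding site, and whether matches bear on the unequal changes was not tested.

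As a check of the cadmium labels, the metallothionein genes Mt1 and Mt2, which cadmium induces, were compared between Cd and control liver. They were 35.2 and 50.2 times as high on average in Cd. The limma log2 differences were 5.30 ± 0.48 SE (adjusted p = 1.86e-05) and 5.88 ± 0.66 (adjusted p = 5.739e-05). Between Cd+Se and Cd liver Mt1 and Mt2 differed by 0.24 and 0.23 (limma adjusted p = 0.758 and 0.834). The diet labels were thus not checked. TPM keeps no read depth, so counting error is unknown. All 8 hepatocyte markers were detected in every group, with summed levels of 71430 to 94780 TPM in control and 58950 to 88220 TPM in Cd liver. Most of this sum was Alb, which averaged 52070 TPM in control and 33210 TPM in Cd liver, with overlap between the groups. The typical gene was lower in Cd liver: the median change over all tested genes was -0.17 on the log2 scale in Cd against control and 0.17 in Cd+Se against Cd, and changes of the members are read against these medians. Without Cd mouse 5 these medians were -0.09 and 0.09. Cd mouse 5 stood apart, with the lowest level of the 4 Cd mice for 69.96% of tested genes and for all 9 members. Its median level over tested genes was 74.2% of the mean of the other Cd mice, so values without it are given beside results that move with it. In the other groups, too, 1 mouse was often lowest for most members: among Se mice, mouse 39 was lowest and mouse 40 highest for all 9.

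Together the 9 genes made up 0.7505% ± 0.083 (SD, n = 4 mice) of all TPM in control liver, 0.602% ± 0.13 in Cd, 0.756% ± 0.10 in Cd+Se and 0.638% ± 0.089 in Se liver. In control liver Fga was the 56th most abundant of all genes at 2226 ± 185 TPM, Fgg the 59th at 2055 ± 322 TPM and Fgb the 90th at 1125 ± 216 TPM. Plg at 857 ± 43.97 TPM and F2 at 747 ± 69.6 TPM followed, then F10 at 233 ± 21.3 TPM. F9 at 107 ± 4.30 TPM and F5 at 106 ± 11.04 TPM overlapped, as did Fga with Fgg and Plg with F2 in control mice, and F7 was lowest at 49.9 ± 4.08 TPM. The order of Fga and Fgg differed between groups. Fga was above Fgg in 4 of 4 control and 4 of 4 Se mice. Fgg was above Fga in 4 of 4 Cd and 4 of 4 Cd+Se mice. Some margins were small: the Fgg to Fga ratio was 0.997 in control mouse 27 and 1.045 to 1.098 in Cd+Se mice. TPM is scaled by transcript length, so this order rests on the lengths used. In bulk liver, fewer cells of a type and less RNA per cell cannot be told apart.

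**Figure D1:**
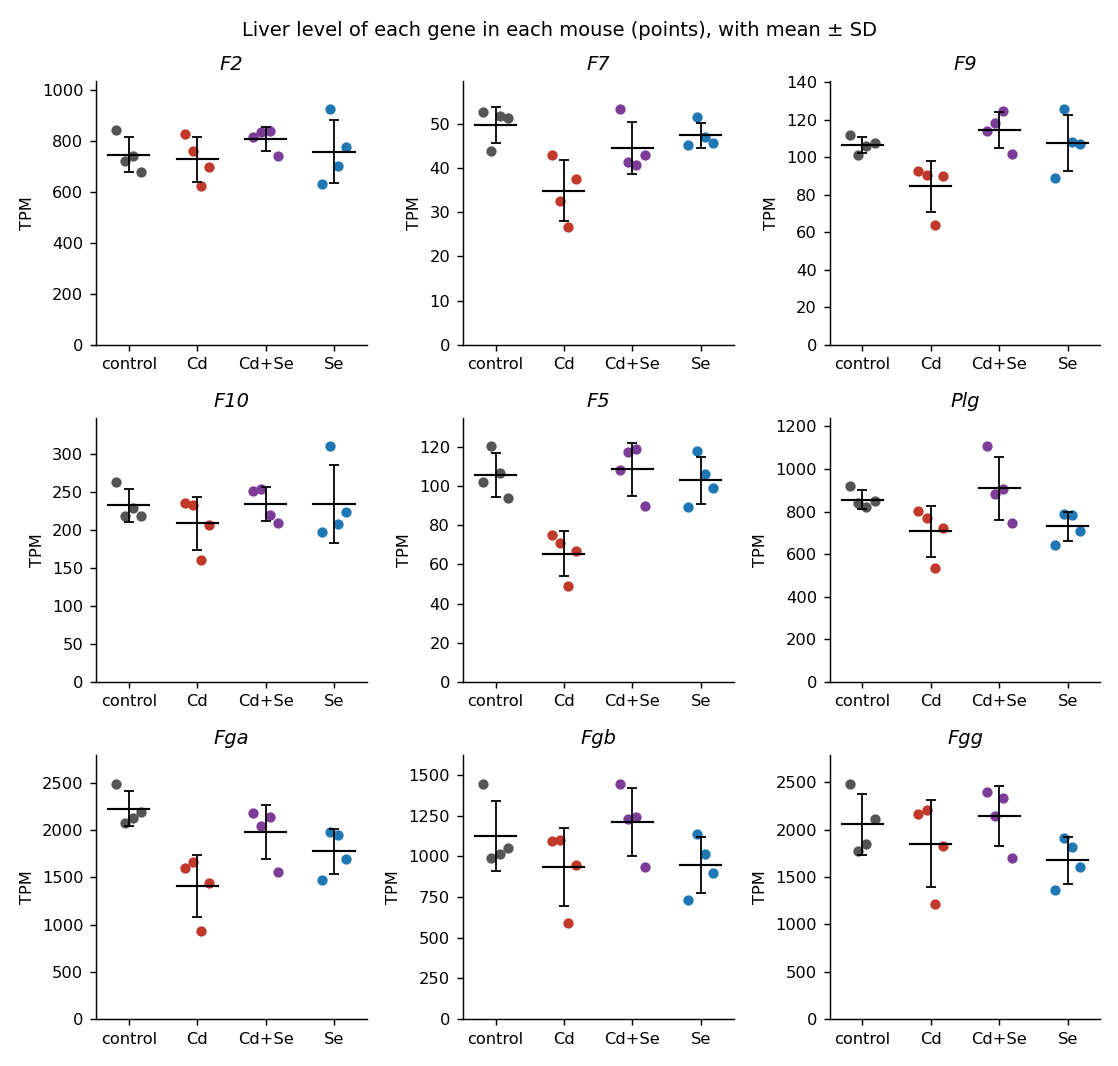
TPM of the 9 genes in each of 16 mice (points, 4 per group) with the group mean and SD (bars); each y axis starts at 0. F5 was 49.2 to 75.0 TPM in Cd and 94.0 to 120 TPM in control mice, whereas F2 overlapped between all groups.

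Injected cadmium was set against no treatment to ask what it did to the liver. In Cd liver the cofactor F5, the fibrinogen chain Fga and the initiating protease F7 were lower than in control liver, and no member was higher. The other 6 members, F2, F9, F10, Fgb, Fgg and Plg, did not pass the test. The fit was limma on log2(TPM + 1) over all 16 libraries with Benjamini-Hochberg adjustment over 11766 genes, called at an adjusted p under 0.05. The 3 of 9 members called lower stand beside 24.9% of all tested genes called lower, and the 0 called higher beside 5.82%, so the share of members that fell is near that of all genes. Their median change was -0.30, against -0.17 for all tested genes. Without overlap between groups, 5 of 9 members (F5, F7, F9, Fga and Plg) were lower in Cd mice, beside 27.8% of all tested genes. Over all genes, 685 were called higher and 2934 lower as deposited, 2260 and 1804 with each library centred on its own median, 1710 and 2276 after quantile normalization, and 1661 and 2120 after a correction for transcript length and GC content.

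Among the vitamin K-dependent proteases, F7, which starts the tissue factor pathway, was 52.7, 43.8, 51.7 and 51.3 TPM in the control mice and 43.0, 32.6, 26.6 and 37.6 TPM in the Cd mice. The highest Cd mouse lay just under the lowest control mouse, and the others lay well below. The log2 difference was -0.52 ± 0.13 (SE, limma adjusted p = 0.00899), and it was -0.30 after centring on the library median, where the adjusted p was 0.0437. F9, the protease missing in haemophilia B, was 101 to 112 TPM in control mice and 92.8, 90.7, 64.0 and 90.1 TPM in Cd mice. The groups did not overlap, and the log2 difference of -0.35 ± 0.13 had a limma adjusted p of 0.0509. Without Cd mouse 5 it was -0.22 with a limma adjusted p of 0.149.

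F2, the zymogen of thrombin, was 844, 723, 742 and 680 TPM in control and 830, 760, 625 and 698 TPM in Cd mice. These ranges lay almost on top of each other. Its log2 difference was -0.04 ± 0.13 (95% interval -0.31 to 0.22, limma adjusted p = 0.832), 0.18 after centring on the library median and 0.03 without Cd mouse 5. F10, which as factor Xa cuts prothrombin, was 218 to 264 TPM in control and 161 to 236 TPM in Cd mice. Of the 4 Cd mice, 2 lay inside the control range and 2 below it, and the log2 difference of -0.16 ± 0.15 had a limma adjusted p of 0.428, and was 0.06 after centring and -0.04 without Cd mouse 5. F10 therefore overlapped where its neighbour F7 did not. The ratio of F7 to F10 within a mouse was lower by 0.37 on the log2 scale in Cd mice, without overlap. Ratios did not overlap for 16 of the 36 member pairs. This is a description with no test and with no share for pairs of other genes.

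The cofactor gene F5 was 102, 120, 107 and 94.0 TPM in the control mice and 75.0, 70.9, 49.2 and 66.9 TPM in the Cd mice. The highest Cd mouse stood below the lowest control mouse by a clear gap. The mean in Cd was 0.62 times that in control, and the log2 difference of -0.69 ± 0.14 had the smallest adjusted p of the 9 members (limma, 0.0022). Its adjusted p was under 0.05 in 27 of 27 fits, the reported one included, with log2 differences of -0.76 to -0.30. Among these is a stricter call on the reported fit that also needs a log2 change of at least 1, which F5 missed. The smallest difference came with a correction for transcript length and GC content, where the limma adjusted p was 0.0162. The F5 transcript is 7430 bases long, the longest of the members, and across the 11561 tested genes with a length the change in Cd against control fell with length (Spearman rho -0.193, over genes, which are not independent).

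The fibrinogen chains did not move alike. Fga was 2494, 2079, 2132 and 2198 TPM in control and 1604, 1659, 929 and 1444 TPM in Cd mice. All 4 Cd mice were below all 4 control mice, with a log2 difference of -0.69 ± 0.17 (limma adjusted p = 0.00737) and of -0.50 without Cd mouse 5 (limma adjusted p = 0.0187). Fgb was 1448, 988, 1016 and 1049 TPM in control and 1094, 1101, 589 and 944 TPM in Cd mice. Both ranges overlapped, and control mouse 27 was high and Cd mouse 5 low. The log2 difference of Fgb was -0.30 ± 0.20 (limma adjusted p = 0.286), 0.01 after the length and GC correction and -0.09 without Cd mouse 5. Fgg was 2485, 1771, 1851 and 2114 TPM in control and 2165, 2209, 1211 and 1821 TPM in Cd mice, with 3 of 4 Cd mice inside the control range. Its log2 difference was -0.18 ± 0.19 (limma adjusted p = 0.496), 0.01 without Cd mouse 5 and 0.04 after centring on the library median.

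Plg was 920, 838, 820 and 848 TPM in control and 805, 767, 536 and 721 TPM in Cd mice. The groups came close without touching. The log2 difference was -0.29 ± 0.14 (limma adjusted p = 0.121), -0.07 after centring and -0.16 without Cd mouse 5. Under quantile normalization Plg passed the test at -0.40 (limma adjusted p = 0.00508), so whether it was called rests on the scaling.

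**Figure D2:**
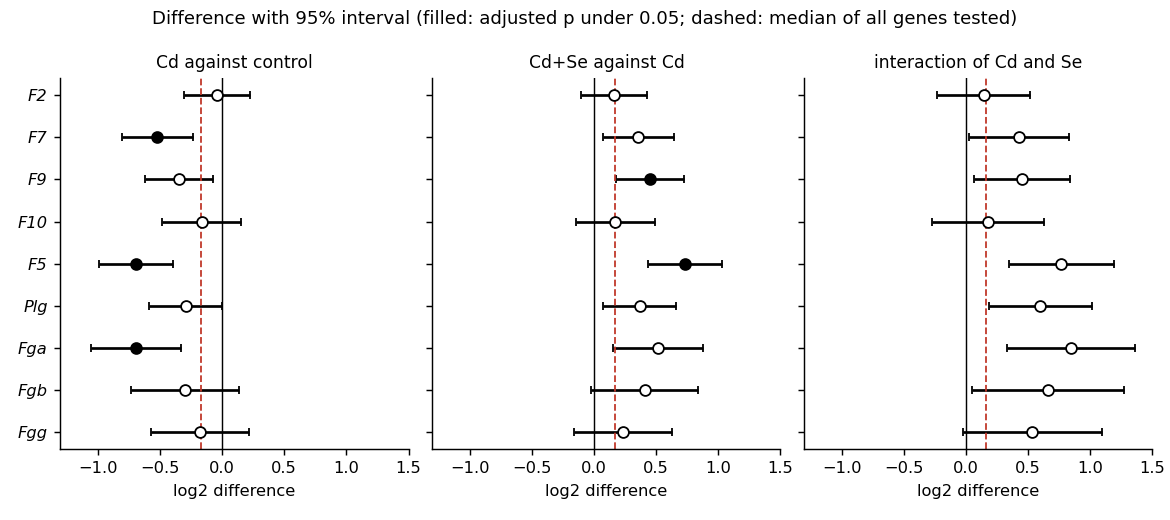
Log2 differences of the 9 genes with 95% intervals in Cd against control, Cd+Se against Cd and the interaction of both treatments; filled points passed an adjusted p of 0.05 and the dashed line is the median of all tested genes. F5 (-0.69), Fga (-0.69) and F7 (-0.52) are filled on the left, F5 (0.73) and F9 (0.45) in the middle, and none on the right.

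A ratio of 2 genes within a mouse is the same whatever single factor a library is scaled by, so the fibrinogen chains were also compared as ratios. The Fgg to Fga ratio was 0.997, 0.852, 0.868 and 0.962 in control mice and 1.35, 1.33, 1.30 and 1.26 in Cd mice. The lowest Cd mouse, at 1.26, was above the highest control mouse, at 0.997. Such a lack of overlap held for 16 of the 36 member pairs, 6 of them with Fga. No share for pairs of other genes is given. In Cd+Se mice the ratio was 1.045 to 1.098, below every Cd mouse and above every control mouse, and in Se mice it was 0.921 to 0.966, inside the control range. On the log2 scale the ratio was higher by 0.51 in Cd than in control mice (exact two-sided permutation p = 0.0286, adjusted p = 0.0429 over 6 tests) and differed by -0.28 between Cd+Se and Cd mice (exact permutation p = 0.0286, adjusted p = 0.0429). With 4 mice against 4 that p is the smallest the test can give. Cd mouse 5, low in all 3 chains, had a ratio of 1.30 like the other Cd mice.

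The Fgb to Fga ratio was 0.476 to 0.581 in control and 0.634 to 0.682 in Cd mice, again without overlap. Its log2 difference was 0.39 (exact permutation p = 0.0286, adjusted p = 0.0429). In Cd+Se mice it was 0.579 to 0.664, which overlapped the Cd mice, with a log2 difference of -0.11 (exact permutation p = 0.114, adjusted p = 0.114). The Fgg to Fgb ratio differed little between control (1.72 to 2.02) and Cd mice (1.93 to 2.06; log2 difference 0.12, exact permutation p = 0.114, adjusted p = 0.114). It was lower in Cd+Se mice, at 1.65 to 1.88, than in Cd mice by 0.17 on the log2 scale (exact permutation p = 0.0286, adjusted p = 0.0429). As a share of the 3 chains together, Fga made up 41.35% ± 1.9 of the TPM in control, 33.7% ± 0.61 in Cd, 37.1% ± 0.68 in Cd+Se and 40.5% ± 0.84 in Se liver. Fgg made up 37.9% ± 1.3, 44.2% ± 0.60, 40.2% ± 0.65 and 38.1% ± 0.13 in the same order (SD, n = 4 mice each). After the correction for transcript length and GC content, 0 of the 6 tests passed, although the Fgg to Fga difference was still 0.45 in Cd against control (exact permutation, adjusted p = 0.0571). The Fgb to Fga difference there was 0.445, with the same adjusted p. Both still had the smallest possible exact permutation p, 0.0286, and failed through the adjustment over 6 tests. In Cd+Se against Cd, Fgg to Fgb shrank to -0.0772 (exact permutation, adjusted p = 0.206).

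**Figure D3:**
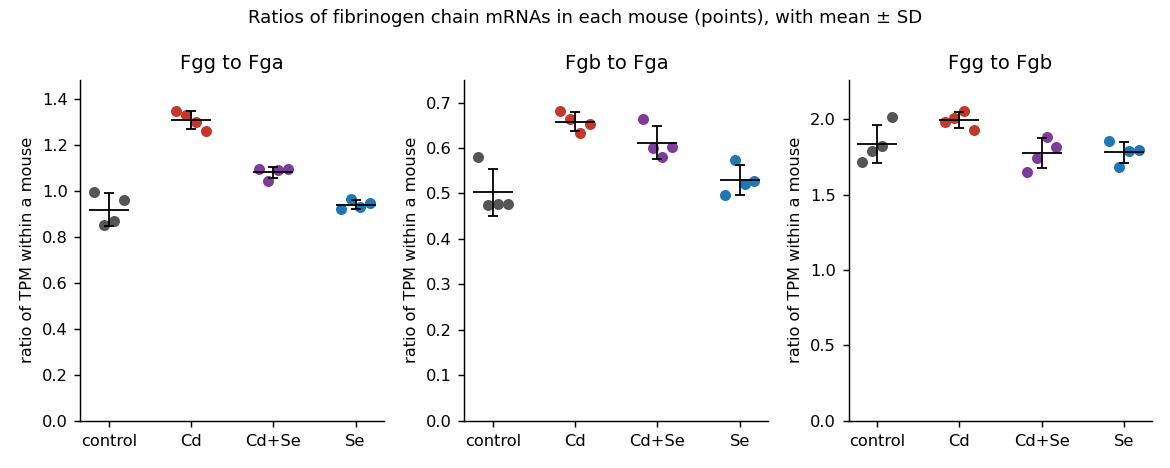
Ratio of TPM of 2 fibrinogen chains within each mouse (points, 4 per group) with mean and SD; each y axis starts at 0. The Fgg to Fga ratio was 1.26 to 1.35 in Cd mice, 1.045 to 1.098 in Cd+Se mice and under 1 in every control and Se mouse.

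The selenium diet in injected mice was examined by setting Cd+Se against Cd. F5 and F9 rose in Cd+Se against Cd liver, and no member was lower. The other 7 members did not pass the test. The 2 of 9 called higher stand beside 13.6% of all tested genes called higher, and the 0 called lower beside 2.35%. The median change of the members was 0.37, against 0.17 for all tested genes. Without overlap, 2 of 9 members (F5 and F9) were higher in Cd+Se mice, beside 16.1% of all tested genes. Over all genes, 1600 were called higher and 276 lower as deposited, 937 and 1272 after centring, 1170 and 908 after quantile normalization, and 1028 and 914 after the length and GC correction. This comparison shares its Cd mice with the one above, so the opposite signs in both are not independent of each other.

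F5 was 108, 118, 119 and 89.8 TPM in the Cd+Se mice against 49.2 to 75.0 TPM in the Cd mice. Every Cd+Se mouse was above every Cd mouse. The log2 difference was 0.73 ± 0.14 (limma adjusted p = 0.00698) and 0.37 after the length and GC correction (limma adjusted p = 0.0107). F9 was 114, 118, 125 and 101 TPM in the Cd+Se mice against 64.0 to 92.8 TPM, also without overlap, with a log2 difference of 0.45 ± 0.13 (limma adjusted p = 0.03). Leaving out Cd mouse 5 ended the call of F9 (0.32, limma adjusted p = 0.0821), as did leaving out Cd+Se mouse 14 (0.43, 0.0772) or 15 (0.41, 0.0697), omitting the filter on low values (0.0544) or correcting for length and GC content (0.24, 0.0648). A fit on these 8 libraries alone called 66 genes in place of 1876, and neither F5 (limma adjusted p = 0.061) nor F9 (limma adjusted p = 0.103) was among them.

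Fga was 2180, 2047, 2140 and 1554 TPM in the Cd+Se mice. Of these, 3 were above every Cd mouse, and mouse 16 lay within the Cd range. The log2 difference was 0.51 ± 0.17 (limma adjusted p = 0.0527), and the adjusted p was 0.0095 under quantile normalization and 0.11 after centring. Without Cd mouse 5 the difference was 0.33 for Fga, 0.20 for Fgb and 0.05 for Fgg. Fgb (937 to 1447 TPM) differed by 0.41 ± 0.20 (limma adjusted p = 0.177) and Fgg (1702 to 2393 TPM) by 0.24 ± 0.19 (limma adjusted p = 0.394). F7 was 53.3, 41.4, 40.7 and 42.9 TPM in the Cd+Se mice. Mouse 13 was above every control mouse, while the other 3 lay inside the Cd range. The F7 difference was 0.36 ± 0.13 (limma adjusted p = 0.0777), and 0.24 without Cd mouse 5.

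Plg, at 1106, 884, 905 and 746 TPM in the Cd+Se mice, differed by 0.37 ± 0.14 from the Cd mice (limma adjusted p = 0.0794), and by 0.24 without Cd mouse 5. Plasminogen thus overlapped through Cd+Se mouse 16, which was lowest of its group for 8 of 9 members. F2 (741 to 839 TPM) and F10 (210 to 254 TPM) differed by 0.16 ± 0.13 and 0.17 ± 0.15 (limma adjusted p = 0.401 and 0.446), by -0.04 and -0.02 after centring on the library median, and by 0.09 and 0.05 without Cd mouse 5.

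**Figure D4:**
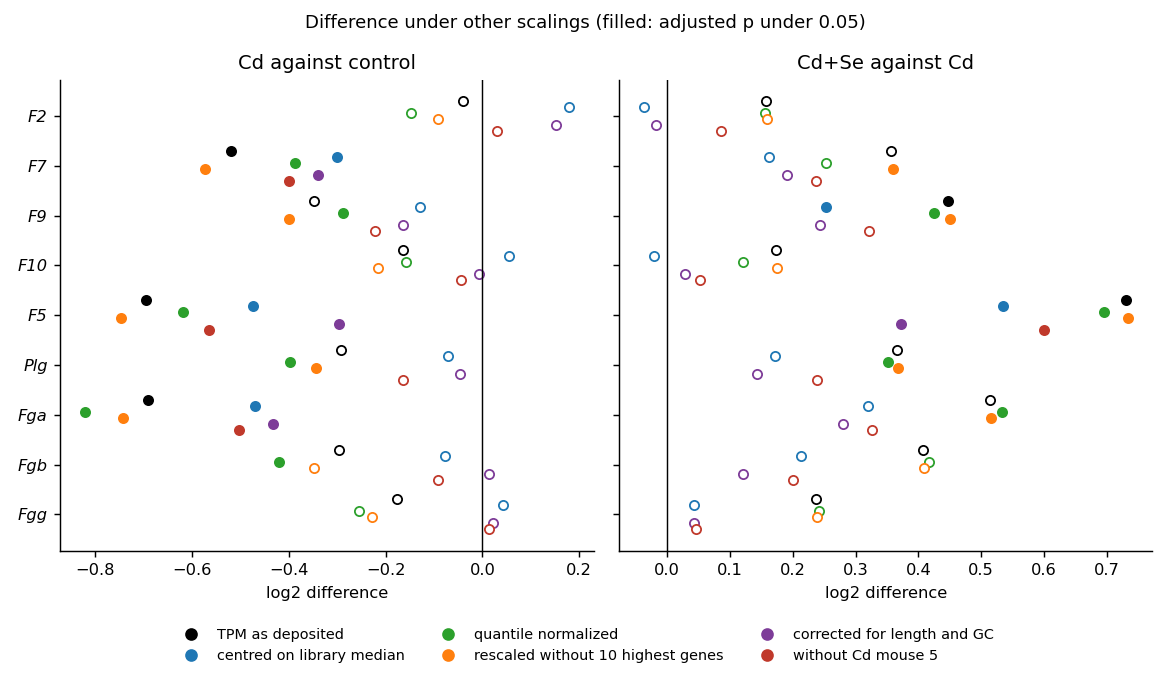
Log2 differences of the 9 genes as deposited, under 3 other scalings, after a correction for length and GC content, and without Cd mouse 5; filled points passed an adjusted p of 0.05. F5, F7 and Fga are lower and filled under all 6 settings in Cd against control, while F2 lies on both sides of 0 (-0.15 to 0.18).

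In Cd+Se against control liver 0 of 9 members were called, beside 0.484% of all tested genes in either direction, and 0 of 9 had an unadjusted limma p under 0.05. The log2 differences ran from -0.18 ± 0.17 for Fga to 0.12 ± 0.13 for F2, and all 9 members overlapped between the groups. Intervals of this width leave room for moderate differences, as for Fga (95% interval -0.54 to 0.19). In Se against control liver 0 of 9 members were called, beside 0.0% of all tested genes, with 0 members and 454 genes at an unadjusted limma p under 0.05. The fibrinogen chains and plasminogen had the larger values there: Fga -0.33 ± 0.17, Fgg -0.30 ± 0.19, Fgb -0.25 ± 0.20 and Plg -0.23 ± 0.14, while the largest among the 5 factors was -0.07 ± 0.13 for F7. Fga (1473 to 1981 TPM) and Plg (644 to 789 TPM) were lower in every Se mouse than in any control mouse, 2 of 9 members beside 1.79% of all tested genes, and neither passed the limma test.

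In Cd+Se against Se liver, the effect of the injections in Se-fed mice, 0 of 9 members were called, beside 0.714% of all tested genes, and 1 member, Plg, had an unadjusted limma p under 0.05. Plg differed by 0.31 ± 0.14, Fgb by 0.36 ± 0.20 and Fgg by 0.36 ± 0.19 (limma adjusted p = 0.435, 0.565 and 0.515). The interaction asks whether the effect of the injections differed between diets. It called 0 of 9 members, beside 1.04% of all tested genes, although 6 of 9 members and 21.3% of all tested genes had an unadjusted limma p under 0.05. The estimate was 0.77 ± 0.20 for F5 (limma adjusted p = 0.0666), 0.85 ± 0.24 for Fga (0.0858) and 0.60 ± 0.20 for Plg (0.111). These 3 passed under quantile normalization, with limma adjusted p of 0.0167, 0.0159 and 0.0167. A difference between diets was thus not detected at the threshold with the deposited scaling.

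The other coagulation genes fall into 6 roles. Of 34 listed genes 28 were tested, 8 were lower in Cd than in control liver (24.9% of all tested genes were) and 1 was higher (5.82%), with a median change of -0.11 against -0.17 for all tested genes. In Cd+Se against Cd liver 3 were higher (13.6% of all tested genes were) and 0 lower (2.35%), with a median of 0.23 against 0.17. F13a1, Thbd, Procr, Plat, Plau and A2m had a mean under 1 TPM and were not tested.

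Of the 8 initiation and contact factors, 2 were lower in Cd liver. F8, the cofactor that partners factor IX and comes from endothelium, was 2.28 TPM on average in control and 0.848 TPM in Cd liver (log2 difference -0.81 ± 0.20, limma adjusted p = 0.00731). F3, tissue factor, was 3.58 and 1.97 TPM (-0.63 ± 0.22, limma adjusted p = 0.0416). Both are low in whole liver, and F12, Klkb1 and Kng1, which hepatocytes make in quantity, did not pass the test. F13b, the carrier subunit of the fibrin-crosslinking factor XIII and the only tested gene of that role, was 111 TPM in control, 68.7 TPM in Cd and 111 TPM in Cd+Se liver. It was lower by 0.72 ± 0.16 on the log2 scale in Cd than in control liver (limma adjusted p = 0.00427) and higher by 0.72 ± 0.16 in Cd+Se than in Cd liver (limma adjusted p = 0.0133).

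Of the 5 genes of the vitamin K cycle and of factor secretion, 3 were lower in Cd liver. Lman1, part of the receptor that carries factors V and VIII out of the endoplasmic reticulum, was 85.7 TPM in control and 49.9 TPM in Cd liver (-0.80 ± 0.17, limma adjusted p = 0.00363). Its partner Mcfd2 differed by -0.16 ± 0.18 (limma adjusted p = 0.507). Ggcx, the carboxylase that activates the vitamin K-dependent factors, differed by -0.58 ± 0.14 (limma adjusted p = 0.00727) and Vkorc1l1, a vitamin K epoxide reductase, by -0.48 ± 0.18 (limma adjusted p = 0.0487), whereas the main reductase Vkorc1 differed by 0.14 ± 0.13. None of these 5 was called in Cd+Se against Cd.

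Among 7 tested anticoagulants, Serpind1 (heparin cofactor II) was lower in Cd than in control liver (-0.40 ± 0.14, limma adjusted p = 0.0404). Pros1, protein S, rose in Cd+Se against Cd liver (0.72 ± 0.18, limma adjusted p = 0.0177), while Serpinc1 (antithrombin) and Proc (protein C) were not called in either. Of the fibrinolysis genes tested, Serpinf2 (antiplasmin), Cpb2 and Hrg were not called by limma in either comparison. Fgl1, a fibrinogen-like hepatokine, was 2.11 times as high on average in Cd as in control liver (1.18 ± 0.39, limma adjusted p = 0.0293), the only pathway gene called higher there. The protease gene Habp2 was lower in Cd liver (-0.39 ± 0.11, limma adjusted p = 0.0162) and differed the other way in Cd+Se against Cd (0.35 ± 0.11, limma adjusted p = 0.0463).

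After centring on the library median, 5 of the 8 pathway genes called lower in Cd liver no longer passed (limma adjusted p = 0.212 for F3, 0.0922 for Ggcx, 0.145 for Vkorc1l1, 0.199 for Serpind1 and 0.0677 for Habp2), and F8, F13b and Lman1 did. Of the 3 called in Cd+Se against Cd, Habp2 was lost (limma adjusted p = 0.132). Calls close to the threshold depended on the settings. Vkorc1l1 had an adjusted p under 0.05 in 8 of 27 fits and Habp2 in Cd+Se against Cd in 9 of 27. F3 had it in 15 of 26, Serpind1 in 17 of 27 and Fgl1 in 21 of 27. Without Cd mouse 5, F3, Vkorc1l1, Serpind1 and Fgl1 in Cd against control and Habp2 and Pros1 in Cd+Se against Cd did not pass, and with only the groups compared none of the 3 called in Cd+Se against Cd did. Fgl1 also lost its call without control mouse 28 or 29 and without Cd mouse 2 or 6. F13b, Lman1 and F8 had an adjusted p under 0.05 in Cd against control in 27 of 27, 27 of 27 and 26 of 26 fits.

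**Figure D5:**
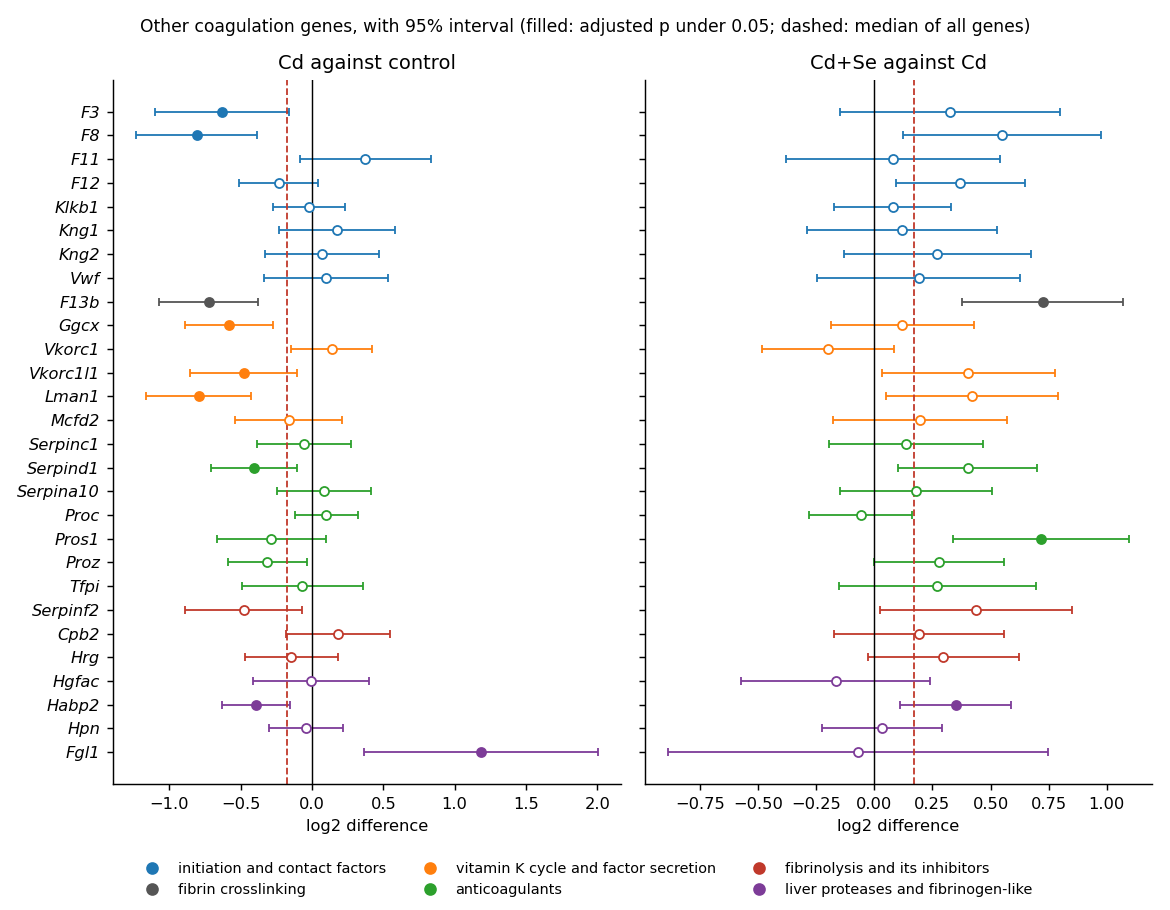
Log2 differences with 95% intervals of the 28 tested coagulation genes other than the 9 members, coloured by role; filled points passed an adjusted p of 0.05 and the dashed line is the median of all tested genes. In Cd against control 8 genes are filled on the left of 0 and Fgl1 (1.18) on the right.

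Hepatocyte transcription factors and IL-6 signalling genes are known regulators of some of these promoters, and their levels are given beside the members. Their part in the members' changes was not tested. Of 8 transcription factor genes, 3 were lower in Cd than in control liver (24.9% of all tested genes were) and 0 higher (5.82%). Hnf4a fell from 152 to 86.6 TPM on average (-0.81 ± 0.16, limma adjusted p = 0.00173), the bile acid receptor Nr1h4 from 119 to 65.1 TPM (-0.86 ± 0.14, limma adjusted p = 0.000718) and Onecut1 from 17.5 to 2.81 TPM (-2.40 ± 0.77, limma adjusted p = 0.02695). Onecut1 passed in 20 of 27 fits and lost its call without any 1 of the 4 control mice and without Cd mouse 5 or 6. Hnf4a and Nr1h4 rose in Cd+Se against Cd, by 0.58 ± 0.16 and 0.63 ± 0.14 (limma adjusted p = 0.0239 and 0.0139). These were 2 of the 8, beside 13.6% of all tested genes called higher. The call of Hnf4a there was lost without Cd mouse 5, without Cd+Se mouse 14 or 15 and with no filter, and neither gene nor Il6st passed with only the groups compared. Of 5 IL-6 pathway genes 1 was called in each comparison, the receptor chain Il6st, which was lower by 0.98 ± 0.15 in Cd than in control liver (limma adjusted p = 0.000533) and higher by 0.89 ± 0.15 in Cd+Se than in Cd liver (limma adjusted p = 0.00534). The shares of all tested genes called that way were 24.9% and 13.6%. Il6st also passed the interaction (0.99 ± 0.22, limma adjusted p = 0.0453), 1 of 5 genes beside 1.04% of all tested genes. Stat3 and Cebpb, which stand in both lists, were not called.

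Many other acute-phase genes were higher in Cd liver. Of 11 listed, 7 were higher in Cd than in control liver (5.82% of all tested genes were) and 0 lower, with a median change of 1.27, and 0 were called in Cd+Se against Cd. The largest called changes were 3.58 ± 0.44 for Saa3, 3.36 ± 1.2 for Saa2, 3.21 ± 0.86 for Lcn2 and 1.27 ± 0.34 for Apcs (limma adjusted p = 0.000118, 0.0496, 0.0112 and 0.0105). Reads of Saa2 and its near-identical copy Saa1 could have been split by the counting, so Saa2 is uncertain, and it passed in 12 of 27 fits. The groups overlapped for Saa2 and Lcn2. Without Cd mouse 5, 4 of the 7 (Hp, Hpx, Itih4 and Saa2) lost their call, as they did without Cd mouse 2 or 6 and without control mouse 28 or 29, and the calls of Saa3, Lcn2 and Apcs held in 27 of 27 fits. No fibrinogen chain was called higher in any of the 6 comparisons.

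Markers of other liver cells moved in the same libraries, and their part in the members' changes was not tested. All 5 Kupffer cell markers were lower in Cd than in control liver (24.9% of all tested genes were). The call of Cd5l held in 18 of 27 fits. It was lost without Cd mouse 5 and after centring (limma adjusted p = 0.0771 for the latter). The list summed to 102 to 125 TPM in control and 34.9 to 54.2 TPM in Cd mice. In Cd+Se mice the sum was 31.4 to 65.3 TPM and in Se mice 55.7 to 138 TPM. Of 5 neutrophil markers the 2 tested, S100a8 and S100a9, were higher in Cd liver (5.82% of all tested genes were), and the list summed to 5.47 to 15.8 TPM in control, 31.1 to 39.3 in Cd, 42.1 to 70.4 in Cd+Se and 5.04 to 9.40 TPM in Se mice. The platelet and megakaryocyte markers summed to 2.66 to 4.04 TPM in control, 4.01 to 6.88 in Cd, 3.63 to 7.02 in Cd+Se and 2.94 to 5.46 TPM in Se mice, with Gp6 at 0.02 TPM or less in every mouse. Of 5 sinusoidal endothelium markers 1 was lower in Cd liver (24.9% of all tested genes were). That list summed to 53.5 to 64.5 TPM in control and 34.9 to 51.7 TPM in Cd mice. Its sum was 39.7 to 74.2 TPM in Cd+Se and 39.8 to 64.1 TPM in Se mice. The call of that marker, Stab2, was lost without Cd mouse 5 and after centring (limma adjusted p = 0.0689 for the latter). Of the 8 hepatocyte markers, Apoa2 was higher in Cd than in control liver (0.56 ± 0.12, limma adjusted p = 0.00307). The urea cycle gene Cps1 was lower (-1.36 ± 0.18, limma adjusted p = 0.000169). Over all tested genes 5.82% were called higher and 24.9% lower.

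Over the 16 libraries the log2 levels of the 9 genes rose and fell together. Pearson's r over the 36 pairs was 0.419 to 0.961 (median 0.748), and with group means removed it was 0.416 to 0.976 (median 0.785). Without removing group means, the lowest pair was F2 with F7 and the highest Fgb with Fgg. All values of a mouse come from 1 library and share its scaling, so these are descriptions without a test. No r for pairs of other genes is given beside them, so they do not show that the members move together more than other genes. By the same measure the non-members most like each member were Elf1 (r = 0.943), Myl12a and Map3k1 for F2, Gm10175 (0.941), Ctso and Slc25a11 for F7, Setd3 (0.958), Atp6v1b2 and Aamp for F9, and M6pr (0.934), Pdk1 and Rbm7 for F10. For F5 they were Mia3 (0.981), Fam91a1 and Glg1, for Fga Serpina1b (0.940), Pttg1ip and Ddi2, and for Plg Col18a1 (0.902), Serpina1b and Myd88. Fgb and Fgg had the same first neighbours, Myd88 (0.926 and 0.877) and Rnf114, followed by Dpyd and H2-D1. Serpina1b and H2-D1 belong to families of near-identical genes, so their levels are uncertain.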

How the data were processed

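Poly(A) RNA of 16 livers was sequenced on an Illumina NovaSeq by a service company. The deposited table gives TPM per gene, which the authors made with fastp, HISAT2 and StringTie per the submitters' processing notes, with no versions. Those notes name build GRCh38, a human build, whereas the gene identifiers are those of mouse, so the build is not settled. Sample titles name 2 runs per mouse, and how they were combined is not given in the sources used here. Each mouse counts as 1 replicate.

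Genes whose mean over the libraries reached 1 TPM (11766) were kept, and log2(TPM + 1) was fitted with limma 3.58.1 (R 4.3.3), 1 mean per group, with a trended prior and Benjamini-Hochberg adjustment over all genes, so fold changes of low genes are understated. No count test was used, since TPM is not a count. Fibrinogen chain ratios were tested with exact two-sided permutation over mice (SciPy 1.17.1). The fits were tested on simulated data. The 9 members and all gene lists were chosen with earlier results of these data known. All members are named, of the other pathway genes those called in Cd against control or Cd+Se against Cd (up to 4 a role), of the regulator, IL-6 and acute-phase lists up to 4 called genes each, by size of change, and as nearest genes 3 per member. Genes named as not called (F12, Klkb1, Kng1, Mcfd2, Vkorc1, Serpinc1, Proc, Serpinf2, Cpb2, Hrg, Stat3 and Cebpb) were picked once their values had been seen. All p-values measure only the spread between these mice. For limma that spread is pooled over all 16 libraries and moderated toward a trend over the tested genes. Of the marker lists not described, 1 of 5 stellate cell genes was lower in Cd liver (24.9% of all tested genes were), 0 of 4 erythroid genes were called, and none of 4 cholangiocyte genes was tested. Alternatives were other pseudocounts, filters and scalings, only the groups compared, no trend, a minimum log2 change of 1, and leaving out each mouse, and a loess correction for length and GC content was added after seeing the data. 1 listed gene is not reported here. Promoters were matched for 8 of 9 members. Plg was not matched.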

Additional observations from a re-analysis of the deposited data

Results flagged for a closer look

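Among 52 sets of 4 mice (9 genes, 3 chain ratios and the members' sum in 4 groups), 6 held a mouse whose gap to its nearest neighbour, as a share of the range, was above Dixon's 95% critical value. Chance gives about 1 in 20, or 2.6 here. F7 in control mice had a share of 0.837, from mouse 28 at 43.8 TPM with the others at 51.3 to 52.7 TPM. F7 in Cd+Se mice had 0.832, from mouse 13 at 53.3 TPM with the others at 40.7 to 42.9 TPM. F9 in Cd mice had 0.907, from mouse 5 at 64.0 TPM with the others at 90.1 to 92.8 TPM. Fgb in control mice had 0.868, from mouse 27 at 1448 TPM with the others at 988 to 1049 TPM. The log2 Fgb to Fga ratio in control mice had 0.98, again from mouse 27, at -0.78 with the others at -1.07. The log2 Fgg to Fga ratio in Cd+Se mice had 0.868, from mouse 14 at 0.06 with the others at 0.13.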

How the results depend on the processing

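F5, F7 and Fga stayed lower in Cd than in control liver with an adjusted p under 0.05 in 27 of 27 fits, the reported one included. The number of members called in Cd against control, 3 as reported, was 6 under quantile normalization, 5 when rescaled without the 10 highest genes and 0 with a minimum log2 change of 1. In Cd+Se against Cd, 2 as reported, it was 4 and 5 under those scalings, 0 with the minimum change, 0 with only the groups compared, 1 with no filter, 1 after correcting for length and GC content and 1 to 4 when single mice were left out. For the interaction, 0 as reported, it was 3 under quantile normalization, 3 when rescaled without the 10 highest genes and 1 after centring, and 0 to 1 when single mice were left out. Of the 6 ratio tests 4 passed as reported and 0 after the length and GC correction, where the log2 differences were 0.45 for Fgb to Fga (0.445) and Fgg to Fga (0.454) in Cd against control, and -0.24 for Fgg to Fga and -0.0772 for Fgg to Fgb in Cd+Se against Cd. Of these, those with Fga kept the smallest possible exact p, which the adjustment raised to 0.0571 (exact permutation). Without 1 mouse the smallest exact p of a ratio is 0.0571, so no ratio could pass.

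Changes near 0 turned direction. In Cd against control F2 was 0.18 after centring, 0.00 (0.001) over protein-coding genes and 0.15 under that correction, and -0.106 to 0.0301 without single mice. F10 was 0.0554 and Fgg 0.043 after centring, Fgg 0.0218 and Fgb 0.013 after the correction, and Fgg -0.27 to 0.0143 without single mice. In Cd+Se against Cd, F2 was -0.0374 and F10 -0.0215 after centring and F2 -0.0184 after the correction. For the interaction F2 was -0.0417 and F10 -0.008 after centring and F2 -0.0265 after the correction. The cause was not tested. No paired analysis was possible because the mice carry different numbers in each group. Depth is unknown from TPM. Over all genes, Cd+Se against Cd called 1876 genes, 767 without Cd mouse 5, 712 without Cd+Se mouse 14, 1131 with no filter and 110 with the minimum change, which left 376 of 3619 in Cd against control. The interaction called 122, then 524, 731, 465, 446 and 26 under quantile normalization, centring, rescaling without the 10 highest genes, the correction and no filter, and 2 to 348 without single mice.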
